A study of Mus musculus with 6 samples.

Results

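In wild-type B16 cells, 1863 of 27019 peaks of H3K4me3 on chromosomes 1 to 19, X and Y (6.90%) lay at the ends of noncoding genes only. They were chosen by the positions of the deposited H3K4me3 peaks. Each had an annotated end of a RefSeq gene of some biotype other than protein-coding within 1 kb, and had no protein-coding end within that distance. They are called noncoding-end peaks below, and each is named after the noncoding gene whose end lies nearest its summit. The other peaks were 11673 at protein-coding ends, of which 1840 also lay at a noncoding end, and 13483 at no gene end.

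B16 is a mouse melanoma line, and the data are CUT&Tag peak lists, in which an antibody guides a transposase to cut and tag the DNA around its target. The libraries used here were labelled B16_WT_H3K4me3 and B16_WT_p300, both with the cell type Melanoma and the genotype WT and with no treatment given. There was 1 library for each antibody, so no value has a replicate check and no test was made. The other 4 libraries, for H3K9me3, were not analysed here. The titles of 3 of those 4 name knockouts of Tdg, of Trp53 or of both, while their genotype label also says WT. Of 7 marker genes of the melanocyte lineage, 6 had an H3K4me3 peak at an end (Mitf, Sox10, Tyr, Tyrp1, Dct and Pmel), and Mlana had none. Of 7 marker genes of blood, endothelial cells and keratinocytes, 0 had one. Over all protein-coding genes 50.5% had such a peak. The peak at Sox10 had a fold of only 2.01, and the marker genes were chosen after values were seen.

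Trimethylation of lysine 4 of histone H3 marks the nucleosomes around transcription starts and is deposited by SET1 and MLL complexes. p300, the product of Ep300, is a histone acetyltransferase recruited by transcription factors to active enhancers and promoters. Noncoding genes use more than 1 transcription machinery. Long noncoding RNAs (lncRNAs), miRNA precursors and most spliceosomal RNAs are made by RNA polymerase II, whereas tRNAs, 5S rRNA, 7SK, 7SL and Y RNAs are made by RNA polymerase III, and snoRNAs are mostly cut from introns of host transcripts.

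The 6 promoter windows of noncoding-end peaks printed first were kept because they show 2 kinds of sequence found under strong peaks: tandem repeats and promoters with known motifs. Each window runs from 250 bp before to 50 bp after an annotated start, is written 5′ to 3′ in the direction of the gene, and comes from RefSeq (GRCm38.p6). The first 4 belong to peaks among the 10 of highest −log10 q for H3K4me3 or for p300, whichever windows in the RefSeq table overlapped the peak. Dancr and Kcnq1ot1 were added after their values were seen. In Gm40237 and Gm41603 the capitals mark every other copy of a tandem repeat. In the other windows the capitals mark matches, on either strand, to the GC box (CCGCCC), the CCAAT box (CCAAT), the ETS motif (CCGGAAG) and the E-box (CACGTG).
Gm40237, chr4:118547156-118547455, plus strand: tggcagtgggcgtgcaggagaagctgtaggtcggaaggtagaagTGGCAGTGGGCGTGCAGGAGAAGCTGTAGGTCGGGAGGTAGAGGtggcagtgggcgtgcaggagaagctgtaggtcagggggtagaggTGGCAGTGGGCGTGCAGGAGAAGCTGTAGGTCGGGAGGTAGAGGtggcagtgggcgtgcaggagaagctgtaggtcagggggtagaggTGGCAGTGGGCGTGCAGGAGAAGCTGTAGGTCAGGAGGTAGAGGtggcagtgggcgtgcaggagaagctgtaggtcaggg
Gm41603, chr17:55932148-55932447, minus strand: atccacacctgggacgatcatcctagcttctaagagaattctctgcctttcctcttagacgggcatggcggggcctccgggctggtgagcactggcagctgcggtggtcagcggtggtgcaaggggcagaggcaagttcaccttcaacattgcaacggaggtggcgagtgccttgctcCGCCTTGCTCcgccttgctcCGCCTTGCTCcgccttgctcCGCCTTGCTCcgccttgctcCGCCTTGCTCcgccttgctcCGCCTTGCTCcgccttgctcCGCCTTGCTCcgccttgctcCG
1700113A16Rik, chr3:88177736-88178035, minus strand: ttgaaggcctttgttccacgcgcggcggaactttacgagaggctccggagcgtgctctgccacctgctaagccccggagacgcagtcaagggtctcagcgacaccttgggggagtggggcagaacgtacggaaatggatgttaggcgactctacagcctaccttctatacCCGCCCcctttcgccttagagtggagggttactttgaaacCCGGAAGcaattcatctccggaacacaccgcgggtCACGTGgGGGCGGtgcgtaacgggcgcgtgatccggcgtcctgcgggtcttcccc
Gm38560, chr10:82858959-82859258, minus strand: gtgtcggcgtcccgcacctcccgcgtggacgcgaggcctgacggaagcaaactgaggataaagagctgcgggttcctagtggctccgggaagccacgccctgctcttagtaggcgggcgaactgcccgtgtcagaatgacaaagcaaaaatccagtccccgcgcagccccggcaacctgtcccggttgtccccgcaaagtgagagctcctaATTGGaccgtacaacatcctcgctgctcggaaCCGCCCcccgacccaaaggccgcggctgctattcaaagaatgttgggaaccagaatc
Dancr, chr5:74092810-74093109, plus strand: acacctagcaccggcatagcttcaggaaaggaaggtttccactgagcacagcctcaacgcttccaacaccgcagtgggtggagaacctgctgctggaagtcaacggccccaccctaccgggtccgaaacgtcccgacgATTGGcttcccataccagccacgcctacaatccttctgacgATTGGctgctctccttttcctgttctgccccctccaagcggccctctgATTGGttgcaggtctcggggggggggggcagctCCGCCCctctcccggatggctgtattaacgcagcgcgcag
Kcnq1ot1, chr7:143296498-143296797, minus strand: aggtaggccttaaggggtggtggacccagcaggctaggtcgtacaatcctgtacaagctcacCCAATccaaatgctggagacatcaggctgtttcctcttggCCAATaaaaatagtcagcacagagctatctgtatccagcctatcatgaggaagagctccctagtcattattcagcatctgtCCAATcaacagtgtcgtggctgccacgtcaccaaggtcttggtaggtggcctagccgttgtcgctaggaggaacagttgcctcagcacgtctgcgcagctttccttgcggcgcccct

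The window of Gm40237 was a tandem repeat over all of its 300 bp, with a unit of 44 bp. In Gm41603 a 10-bp unit was repeated over the last 132 bp of the window. The unit is the shortest shift that met the criterion that follows. A window was counted as holding a tandem repeat when a stretch of 100 bp matched itself in at least 90% of bases at a shift of 5 to 100 bp. Such repeats were rare: 0.277% of all 32851 promoter windows held one, against 6 of 849 windows at lncRNA starts with a noncoding-end peak (0.707%, exact 95% interval 0.260 to 1.53) and 50 of 7724 windows at lncRNA starts without H3K4me3 (0.647%). The 1700113A16Rik window held 28 CpG sites and matches to 3 kinds of motif, and the Gm38560 window held 26 CpG sites. Dancr and Kcnq1ot1 each held 3 CCAAT boxes.

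The mature miRNAs below come from the 10 miRNA genes with the highest fold enrichment of a noncoding-end peak. They were kept because p53 is known to activate miR-34b and miR-34c, because MYC is known to activate miR-17 and miR-18a, and because miR-713 and miR-184 had the highest folds. They are printed 5′ to 3′ from RefSeq (GRCm38.p6) with the seed, bases 2 to 8, in capitals. The seed is the part of a miRNA that pairs with its targets. Among the mature sequences found for these genes, the 3p arms of miR-34b and miR-34c shared a seed, and the other seeds differed from each other. No sequence of the 5p arm of miR-34c was found, so its seed was not compared with that of miR-34b-5p.
miR-34b-3p, chr9:51103574-51103595, minus strand: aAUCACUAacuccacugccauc
miR-34c-3p, chr9:51103044-51103065, minus strand: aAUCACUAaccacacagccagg
miR-34b-5p, chr9:51103610-51103632, minus strand: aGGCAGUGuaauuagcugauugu
miR-17-5p, chr14:115043684-115043706, plus strand: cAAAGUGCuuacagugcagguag
miR-18a-5p, chr14:115043867-115043889, plus strand: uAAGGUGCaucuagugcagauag
miR-184-3p, chr9:89802263-89802284, minus strand: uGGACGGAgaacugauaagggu
miR-713, chr13:62760807-62760825, plus strand: uGCACUGAaggcacacagc

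Noncoding-end peaks were narrower and weaker than peaks at protein-coding ends and wider and stronger than peaks at no gene end. These H3K4me3 values come from the list in which the peaks were chosen, so they are a description. Fold enrichment is the authors' ratio of the summit to a background, −log10 q is the authors' adjusted significance of the peak, and summit reads are the whole number of reads that the authors' fold and −log10 p imply at the summit. The median width was 746 bp (quartiles 493.5 and 1090), against 980.0 bp at protein-coding ends and 614 bp at no gene end. The median fold was 5.98, against 6.71 and 5.93. The median −log10 q was 29.5, against 52.9 and 21.3, and the median summit held 75 reads, against 117 and 53. Summits of noncoding-end peaks ranged from 16 to 1276 reads, and the peaks covered 1.64 Mb together. Where a gene is said to have no peak, none was listed, and weaker signal could not be seen at this depth.

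The peaks nearest to the rule's distance limits had these values. Just inside the limit to protein-coding genes were peaks at 4930539J05Rik (1001 bp from Ube2d3, fold 3.36), LOC115488570 (1005 bp from Rpl3, fold 3.48) and E530011L22Rik (1019 bp from Zfp651, fold 5.30). Just outside were peaks at Gm41159 (999 bp from Nfatc4, fold 7.56), 4930507D05Rik (985 bp from Supv3l1, fold 8.28) and Gm29948 (984 bp from Rprd2, fold 5.16). At the limit to noncoding ends, Gm7542 (1000 bp, fold 8.22), Gm31108 (999 bp, fold 9.98) and Gm34621 (997 bp, fold 8.70) were inside. Gm52245 (1003 bp, fold 5.91), Gm8504 (1005 bp, fold 4.61) and Mir3083 (1006 bp, fold 3.41) were outside.

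Counted by gene, H3K4me3 at an end was common at rRNA and tRNA genes and rare at pseudogenes. Over all noncoding genes 12.4% (3473 of 28056) had an H3K4me3 peak within 1 kb of an end, and over protein-coding genes 50.5% (11045 of 21887) had one. These shares include peaks that also lay at a protein-coding end. The share was 79.4% of 63 rRNA genes (exact 95% interval 67.3 to 88.5), 53.2% of 408 tRNA genes (48.2 to 58.1) and 20.1% of 12727 lncRNA genes (19.4 to 20.8). It was 13.5% of 1228 miRNA genes, 8.51% of 1340 snoRNA genes and 6.37% of 1004 snRNA genes. Of 9944 pseudogenes 2.06% had a peak, and of 485 transcribed pseudogenes 11.5% had one. None was found at 394 immunoglobulin and T-cell receptor V segments, which allows a share of up to 0.932%. Neighbouring genes can share a peak, as in the 5S rRNA array described below. That array holds 48 of the 63 rRNA genes under 9 peaks, so the rRNA share rests mostly on 1 locus. tRNA genes share peaks too: on chromosome 1, 26 of them had a noncoding-end peak, with 12 tRNA-end peaks there. The rRNA and tRNA intervals treat the genes as independent and take no account of shared peaks.

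**Figure D1:**
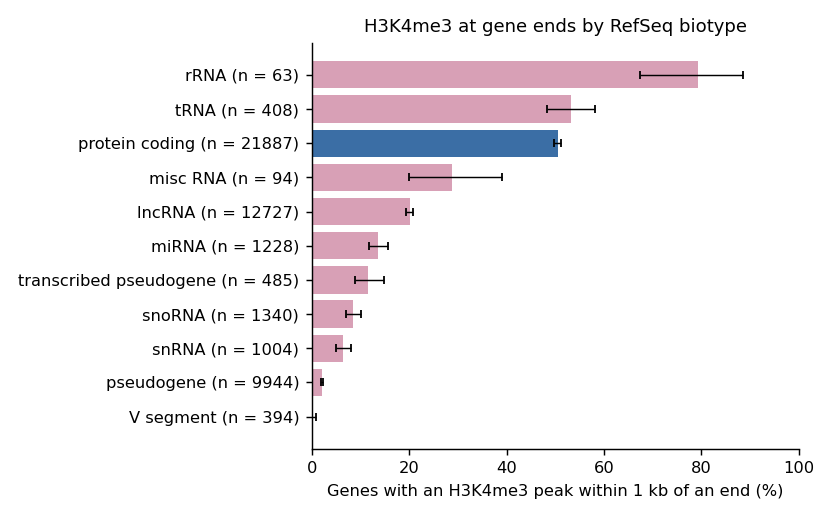
Percent of RefSeq genes of each biotype with an H3K4me3 peak within 1 kb of an end in the wild-type B16 library, with exact 95% binomial intervals (counting error only). rRNA (79.4%) and tRNA (53.2%) lie at or above protein-coding genes (50.5%), and pseudogenes (2.06%) lie near 0.

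By biotype, 1428 of the 1863 noncoding-end peaks (76.7%) were nearest a lncRNA end. The others were nearest pseudogenes (134), tRNAs (109), miRNAs (63), snRNAs (38), transcribed pseudogenes (38), snoRNAs (25), genes of the biotype misc_RNA (13) and rRNAs (11). Rny1 (a Y RNA), Scarna2 (a guide RNA of Cajal bodies), Rn7s2 (7SL, the RNA of the signal recognition particle) and Terc (the RNA template of telomerase) had 1 peak each. Median widths were 751.5 bp for lncRNA, 739 bp for tRNA and 663 bp for miRNA. Among biotypes with more than 1 peak, snoRNA-end peaks were the narrowest (median 497 bp) and had the lowest median fold, 3.76. Those at transcribed pseudogenes had the highest median fold, 8.27, and a median of 132.5 summit reads. rRNA-end peaks had a median width of 3180 bp, which comes from the 5S array.

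The share of noncoding-end peaks with p300 was close to that of the other H3K4me3 peaks. Of all H3K4me3 peaks 21.2% shared at least 1 bp with a p300 peak. The share was 21.6% of noncoding-end peaks (403 of 1863, exact 95% interval 19.8 to 23.6), 21.6% at protein-coding ends (2527 of 11673, interval 20.9 to 22.4) and 20.7% at no gene end (2785 of 13483, interval 19.97 to 21.4). The intervals cover counting error only. Noncoding-end peaks minus protein-coding-end peaks gave a difference of -0.016 percentage points (interval -1.98 to 2.05), and minus peaks at no gene end gave 0.98 (-0.96 to 3.02). p300 peaks that overlapped a noncoding-end peak numbered 403 of 6512 (6.19%), with a median fold of 5.45, against 5.75 for those at protein-coding ends and 5.81 for those at no gene end.

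Among biotypes with more than 1 peak, snRNA ends had the highest share with p300. It was 44.7% of 38 snRNA-end peaks (17 peaks, interval 28.6 to 61.7), an interval that lies above the 21.2% of all peaks. The interval treats the peaks as independent, but some lie at neighbouring genes. Rnu3b1, Rnu3b3, Rnu3b4 and Rnu3b2 lie close together on chromosome 11, and the peaks of all of them overlapped p300. Of Gm22634, Gm25679, Gm26444 and Gm22317, close together on chromosome 12, only Gm22634 and Gm25679 did. For lncRNA ends the share was 21.9% (313 peaks, interval 19.8 to 24.2), for tRNA ends 20.2% (22 peaks, 13.1 to 29.0), for pseudogene ends 17.9% (24 peaks, 11.8 to 25.5) and for miRNA ends 15.9% (10 peaks, 7.88 to 27.3). These intervals all hold the share of all peaks. For transcribed pseudogene ends it was 15.8% (6 of 38, interval 6.02 to 31.3), which also holds that share. The intervals were wide, and held it too, for snoRNA (4 of 25, 4.54 to 36.1), rRNA (4 of 11, 10.9 to 69.2) and misc_RNA ends (1 of 13, 0.195 to 36.0). Rny1 and Rn7s2 overlapped p300, and Scarna2 and Terc did not. The snRNA-end peaks were no stronger than the others, with a median −log10 q of 26.9 and 70.5 summit reads. The 9 biotypes were compared without adjustment, and snRNA was singled out after its value was seen.

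**Figure D2:**
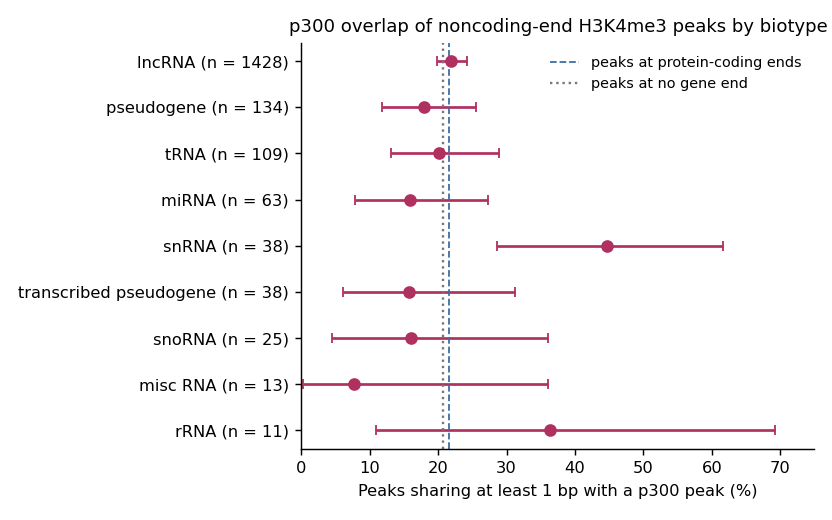
Percent of noncoding-end H3K4me3 peaks that share at least 1 bp with a p300 peak, by biotype, with exact 95% binomial intervals; biotypes with 1 peak are left out. The dashed and dotted lines give the shares at protein-coding ends (21.6%) and at no gene end (20.7%), and the snRNA interval (28.6 to 61.7) is the one that lies above both. Some snRNA-end peaks lie at neighbouring genes, which the interval does not take into account.

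Among peaks of like strength the shares lay further apart. When all H3K4me3 peaks were put in 5 classes of equal size by −log10 q, the share of noncoding-end peaks with p300 was 6.35% in the weakest class (25 of 394) and 43.0% in the strongest (129 of 300). In the middle class it was 21.3% (88 of 414, interval 17.4 to 25.5), against 10.7% at protein-coding ends (228 of 2124, interval 9.45 to 12.1) and 24.2% at no gene end (695 of 2866, interval 22.7 to 25.9). Weighted to the strengths of the noncoding-end peaks, the share was 14.8% at protein-coding ends and 24.5% at no gene end, beside 21.6% for the noncoding-end peaks themselves. With classes of summit reads these weighted shares were 13.7% and 25.1%, and with classes of width they were 16.7% and 24.4%. In each of the 5 classes by −log10 q the share was higher at noncoding ends than at protein-coding ends, with the widest gap in the middle class. The intervals of these groups overlapped in the weakest class (4.15 to 9.22 against 4.18 to 7.45) and narrowly in the strongest (37.32 to 48.8 against 34.5 to 37.41). The weighted shares have no interval and were not tested.

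**Figure D3:**
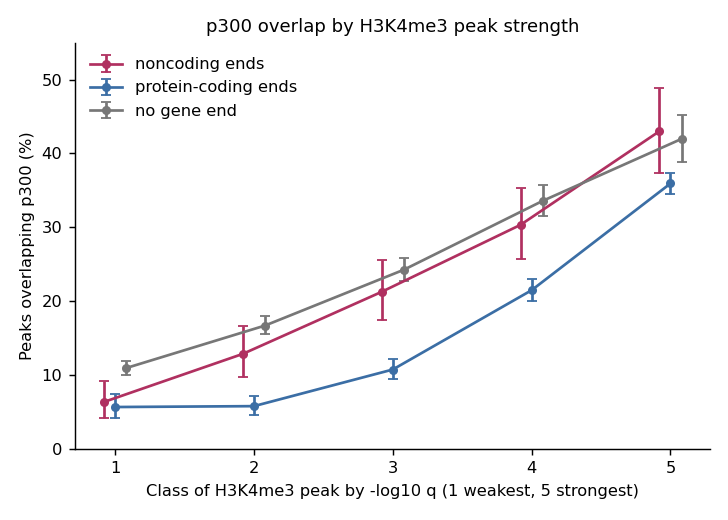
Percent of H3K4me3 peaks overlapping p300 in 5 classes of H3K4me3 −log10 q, from weakest to strongest, for peaks at noncoding ends, at protein-coding ends and at no gene end, with exact 95% binomial intervals. In the middle class noncoding-end peaks (21.3%) lie above protein-coding-end peaks (10.7%) and near peaks at no gene end (24.2%). The gap between noncoding and protein-coding ends is widest there, and their intervals overlap in the weakest and strongest classes.

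Noncoding-end peaks with p300 were wider and held more reads than those without it. Their median width was 1087 bp against 670.5 bp, their median summit held 116 reads against 66, and their median −log10 q was 51.5 against 25.7. The median fold differed less, 6.55 against 5.89. The same held for lncRNA ends (1091 against 681 bp) and tRNA ends (1257 against 627 bp). A wider peak has more room to share a base with a p300 peak, and how far width accounts for the overlap was not tested. Where both were present, the H3K4me3 and p300 summits lay a median of 153 bp apart (quartiles 61.5 and 311.5), against 182 bp at protein-coding ends. Of the 1460 noncoding-end peaks without p300, 151 had a p300 peak within 5 kb (10.3%) and 658 within 50 kb (45.1%). Their median distance to a p300 peak was 60864.5 bp. It was close to the 64044 bp at protein-coding ends and the 64420 bp at no gene end, also for peaks without p300.

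**Figure D4:**
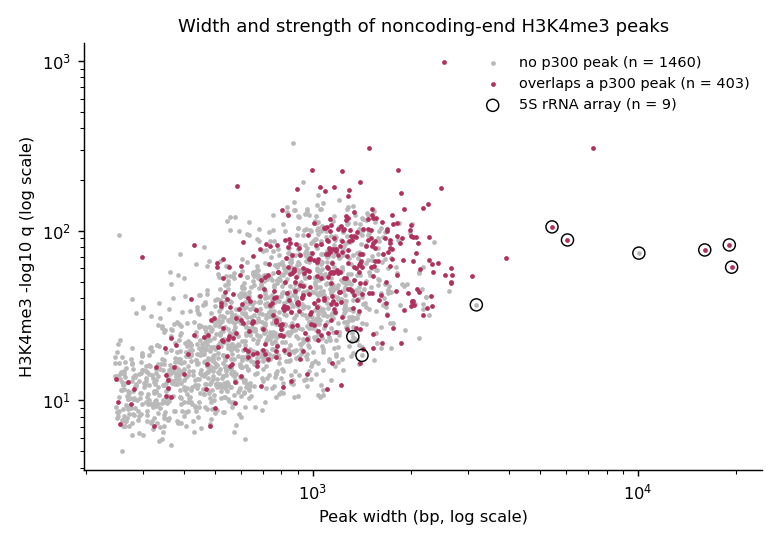
Width (bp, log scale) and −log10 q (log scale) of the 1863 noncoding-end peaks, coloured by overlap with p300, with the 9 peaks of the 5S rRNA array circled. Peaks with p300 (median width 1087 bp) lie towards the upper right of those without it (median 670.5 bp), and 7 of the 9 array peaks are among the 10 widest.

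lncRNA ends carried most of the noncoding-end peaks, and most of these genes have no descriptive name. Of the 1428 lncRNA-end peaks 71.6% were nearest a gene with a Gm number, 19.7% nearest one with a Rik clone name and 6.93% nearest one with another name. Of lncRNA genes with a curated RefSeq transcript record 32.1% had H3K4me3 at an end (1067 of 3319), against 15.9% of those with model records only (1494 of 9408). p300 overlapped 21.9% of the peaks nearest either kind (117 of 534 and 196 of 894).

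The peaks lay more often at the start of a lncRNA than at its other end. The RefSeq promoter table gave a strand for the lncRNA nearest 1115 of the 1428 peaks. Of these, 768 were at the start only (68.9%), 257 at the other end only (23.0%) and 83 at both. Peaks at the start had a median of 83 summit reads, against 60.0 at the other end. p300 overlapped 22.9% of peaks at the start (interval 19.99 to 26.1), 20.2% at the other end (15.5 to 25.7) and 27.7% at both (18.4 to 38.6), and these intervals overlap.

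H3K4me3 summits lay less tightly around the annotated starts of lncRNAs than around those of protein-coding genes. Only peaks within 1 kb of a start were counted in both groups, so their nearness to the start is partly set by the rule. Over 851 peaks at lncRNA starts the median summit lay 41 bp inside the gene (quartiles -283.5 and 397.5), and 40.5% of summits lay within 250 bp of the start. Over 8954 peaks at protein-coding starts the median was 34.5 bp (quartiles -141 and 378), and 53.2% lay within 250 bp. The summit was inside the gene in 56.3% and 55.8% of peaks. lncRNA starts with p300 (median 43 bp, n = 199) and without it (median 41 bp, n = 652) lay at like positions.

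**Figure D5:**
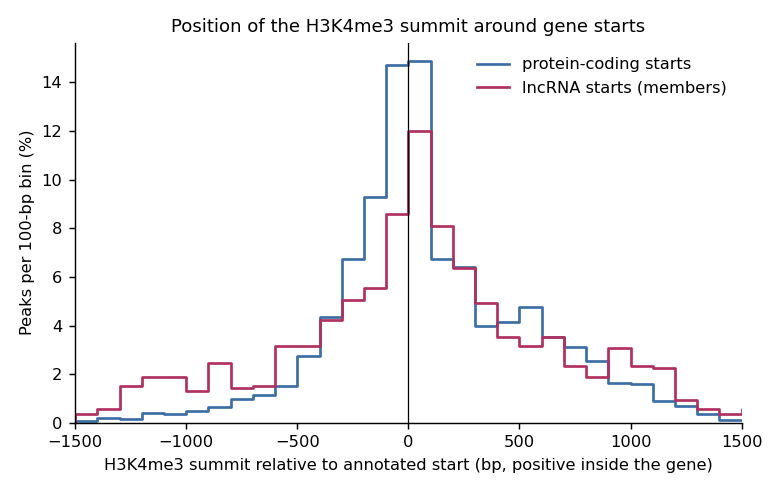
Position of the H3K4me3 summit relative to the annotated start, in 100-bp bins, for 851 noncoding-end peaks at lncRNA starts and 8954 peaks at protein-coding starts; positive values lie inside the gene. Both are highest at the start, and 40.5% of lncRNA and 53.2% of protein-coding summits lie within 250 bp of it. Only peaks within 1 kb of a start were counted, which partly sets this nearness.

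Promoter windows under lncRNA-end peaks were intermediate in CpG content. The ratio of observed to expected CpG sites, which is high in CpG islands, had a median of 0.40 in 849 windows at lncRNA starts with a noncoding-end peak. It was 0.21 at 7724 lncRNA starts without H3K4me3 and 0.79 at 9232 protein-coding starts with H3K4me3. The ratio was over 0.6 in 28.9%, 6.12% and 77.4% of these windows. Median GC content was 53.3%, 47.3% and 61.7%. Of the lncRNA windows over 0.6, 28.6% had p300 at the peak (70 of 245, interval 23.0 to 34.7), against 23.2% of the others (140 of 604, interval 19.9 to 26.8), and these intervals overlap.

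Short motifs were searched on both strands of the same windows, and no searched motif contains another. The GC box (CCGCCC, in 35.7% of all promoter windows) was in 33.8% of windows at lncRNA starts with a noncoding-end peak (interval 30.6 to 37.1), 9.54% at lncRNA starts without H3K4me3 and 67.9% at protein-coding starts with it. The ETS motif (CCGGAAG, 8.86% of all windows) was in 7.89%, 2.42% and 20.01%. The TATA box (TATAAA, 13.6% of all) was in 12.5%, 17.2% and 6.06%. The CCAAT box (CCAAT, 37.4% of all) was in 34.5%, 36.4% and 39.7%, so its share hardly moved. The E-box (CACGTG, 7.15% of all) was in 9.42%, 5.17% and 10.5%. The CRE (TGACGTCA, 1.79% of all) was in 1.41%, 0.725% and 3.49%. The AP-1 motif (TGAGTCA, 5.2% of all) was in 6.83%, 6.53% and 2.97%. A match is a run of letters and not evidence of binding. The GC box was in 39.0% of the lncRNA windows with p300 (interval 32.4 to 46.0) and 32.1% of those without (28.5 to 35.9).

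A part of the noncoding-end peaks lay inside protein-coding genes, and by the rule none lay within 1 kb of a protein-coding end. Of the 1863 peaks 34.5% overlapped a protein-coding gene, from 63.5% at miRNA ends and 36.9% at lncRNA ends to 4.59% at tRNA ends. The nearest protein-coding end lay a median of 14770 bp away, and 432 peaks (23.2%) had one within 5 kb. No such values were computed for other H3K4me3 peaks or for the genome, so these are a description only. p300 overlapped 19.2% of peaks within 5 kb of a protein-coding end (interval 15.6 to 23.3) and 24.8% of those over 50 kb away (20.4 to 29.6). Some noncoding-end peaks at a lncRNA start overlapped 1 or more protein-coding genes, all of the same known strand. The lncRNA lay on the opposite strand in 268 of 284 such cases (94.4%, interval 91.0 to 96.7). Of all lncRNA starts that themselves lay inside protein-coding genes, 90.6% were on the opposite strand (2241 of 2474). The first share goes by overlap of the peak and the second by the position of the start, so they are not like measures.

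The strongest noncoding-end peak lay at 2700054A10Rik, a lncRNA on chromosome 17 (peak chr17:13550683-13553214). It held 1276 summit reads over a background of 84.6 reads, with a fold of 14.9 and a −log10 q of 983, and its p300 peak had a fold of 10.6 and 1435 summit reads. Gm10060, a pseudogene at chr8:19784350-19785219, followed with a −log10 q of 327, a fold of 14.9 and no p300. Gm3318, a pseudogene near the start of the assembled chromosome 10 (chr10:3109644-3116919), had a fold of 8.30 over 7276 bp and a p300 peak of 6942 bp. Both marks were thus wide there.

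Gm40237, whose repeat is printed above, had the highest fold of the 10 peaks of highest −log10 q. Its peak (chr4:118547222-118548704) had a fold of 19.8 with 339 summit reads, and the p300 peak there had a fold of 15.3 with 299. Gm41603 (chr17:55931490-55932484) had a fold of 13.4 with 308 summit reads for H3K4me3, and 8.25 with 53 reads for p300. Reads from repeated sequence can pile up on 1 copy in the assembly, and the placing of such reads by the authors is not stated in the labels, so the values at Gm40237 and Gm41603 are uncertain. The part of repeated reads at 2700054A10Rik, Gm10060 and Gm3318 was not tested. Zfp862-ps, a transcribed pseudogene of a zinc-finger gene, had a fold of 12.0 and no p300 peak within 88450 bp. Gm4123, inside Spen, had a fold of 7.63 with p300, and Gm4691 a fold of 9.88 with p300. Gm52862 and Gm52861, on chromosome 6 near the Rn4.5s gene, had low folds (4.43 and 4.81) over backgrounds of 167.3 and 112.8 reads.

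Other noncoding-end peaks with strong p300 lay at lncRNAs. 1700113A16Rik, a lncRNA near Mef2d (peak chr3:88177258-88178348), had a fold of 11.7 for H3K4me3 and 11.4 for p300, with 251 and 421 summit reads. Gm38560, on a start inside Txnrd1 (chr10:82858892-82859794), had 6.01 and 6.80. At Gm40109 (chr3:101500047-101501129) the p300 fold, 8.70, was higher than the H3K4me3 fold, 5.66. Gm46741, inside Stam2, had 14.3 and 11.1 over 2264 bp.

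Regions of high local background need separate mention. In 59 noncoding-end peaks the background was over 50 reads, and 24 of them overlapped p300 (40.7%, interval 28.1 to 54.3), against 21.01% of the other 1804 (interval 19.1 to 23.0). Leaving such peaks out also lowered the share at protein-coding ends, from 21.65% to 21.06%, and at no gene end, from 20.66% to 20.34%. A higher p300 share at high background was thus not particular to noncoding ends. On chromosome 1 the pseudogenes Gm10222 and Gm10925 had 3 noncoding-end peaks (chr1:24612290-24612655, chr1:24613249-24614008 and chr1:24614854-24615454) with folds of 2.75, 3.54 and 3.00. All 3 shared 1 p300 peak of 4347 bp with 4527 summit reads and a fold of only 2.65. This stretch is known as a nuclear copy of mitochondrial DNA. The H3K4me3 list also held 5 peaks on the mitochondrial chromosome and the p300 list held 3, and the part of mitochondrial reads in the chromosome 1 peaks was not tested.

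The widest noncoding-end peaks lay in 1 locus of RNA polymerase III genes, the 5S rRNA array. This width did not extend to tRNA genes, whose peaks had a median of 739 bp and reached at most 2101 bp. The 5S rRNA array on chromosome 8 (chr8:123537970-123623730, 85.8 kb) held 48 annotated rRNA genes, and 9 noncoding-end peaks covered 81.9 kb of it (95.5%). Their folds ran from 2.84 to 5.68, their summits held 108 to 265 reads, and their widths ran from 1326 to 19382 bp. Of the 10 widest noncoding-end peaks 7 lay in this array, led by those at n-R5s121 (19382 bp), n-R5s149 (19067 bp) and n-R5s108 (16024 bp). p300 was patchy beneath this cover: 13 p300 peaks covered 8.09 kb, with folds of 3.06 to 4.58, and 5 of the 9 H3K4me3 peaks met one. The copies are near identical, so single 5S genes cannot be told apart. The other wide peaks were Gm3318, Gm51932 inside Septin9 (3934 bp, fold 3.73, with p300) and Gm7628 inside Plxnb1 (3087 bp, fold 3.81, with p300).

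Most tRNA genes had H3K4me3 at an end, and genes for all amino acids were among them. Of 408 tRNA genes 217 had a peak at an end and 171 had a noncoding-end peak. By the one-letter code in the gene symbols, the share with a peak was highest for proline (14 of 16), tryptophan (7 of 8) and phenylalanine (6 of 7) and lowest for cysteine (5 of 56). Chromosome 6, with 53 tRNA genes, had a peak at 4 of them. Of tRNA-end peaks 67.0% covered an end of the gene, against 42.2% of lncRNA-end peaks. The strongest were n-TGgcc4, a glycine tRNA gene on chromosome 1 (chr1:171044245-171045127, fold 9.90, no p300), and n-TWcca5, a tryptophan tRNA gene on chromosome 11 (chr11:61407602-61408868, fold 10.1, with p300 at a fold of 6.06).

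tRNA-end peaks with p300 were nearly all outside the large tRNA cluster of chromosome 13. Between positions 21160839 and 23506246 of chromosome 13, 1 of 43 tRNA-end peaks overlapped p300 (2.33%, interval 0.0589 to 12.3). On the other chromosomes 21 of 66 did (31.8%, interval 20.9 to 44.4). This split was chosen after the values were seen. The peaks of the cluster were also weaker, with a median width of 547 bp and 64 summit reads, against 928 bp and 123 reads elsewhere. In the middle class of summit reads 0 of 17 cluster peaks and 2 of 18 others had p300, and in the fourth class 1 of 4 and 7 of 21 did. The fifth class held 0 cluster peaks and 22 others, of which 12 had p300. Strength and location cannot be told apart with these counts. The 14 protein-coding-end peaks in the same interval overlapped p300 in 1 case.

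Of the other RNA polymerase III genes named here, Rny1, Rn7s2 and Rn4.5s had noncoding-end peaks with folds from 3.88 to 8.47. Rn7sk, the 7SK RNA that holds the elongation factor P-TEFb inactive, had a peak 222 bp from its end (fold 8.91, 128 summit reads) with p300 at a fold of 4.64. An end of the lncRNA C920006O11Rik lay nearer the summit of this peak, which was at the start of that lncRNA. Which of these genes the Rn7sk peak belongs to was not tested. Rny1 had a fold of 8.47 with p300 at 5.03, and Rn7s2 a fold of 4.63 with p300 at 5.79. Rn4.5s had a fold of 3.88 with 433 summit reads over a background of 111.0, and no p300. Terc, which RNA polymerase II makes, had a fold of 6.81 and 57 summit reads without p300, and Scarna2 had 6.83 without p300. The snRNA-end peaks of highest −log10 q were Gm23851 inside Cops7a (fold 7.96, p300 fold 6.49) and Gm25201 (fold 7.68, p300 fold 6.20).

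Among miRNA genes, 70 had a noncoding-end peak, and 64 of these have a mature sequence in the RefSeq table. Of the 64, Mir713 had the highest fold (14.2, 130 summit reads), followed by Mir184 (11.2, 95 reads), Mir8104 inside Ppm1h (10.0, 97 reads) and Mir3086 inside Hspa12a (9.01, 48 reads). Mir17 and Mir18, the first miRNAs of the cluster that MYC is known to activate, shared a peak at chr14:115042244-115042857, 814 and 994 bp from their ends (fold 8.70, 84 reads). Mir7011 inside Sema4a (8.53) and Mir7228 inside Syna (8.40) followed. Mir34b and Mir34c, whose seeds are printed above, shared a peak at chr9:51103380-51104403 that covered the end of Mir34b (fold 8.18, 44 summit reads over a background of 4.50). None of these 10 genes had p300 at the peak. Over all miRNA-end peaks 15.9% had p300 (10 of 63, interval 7.88 to 27.3). Because Mir17 and Mir18 shared a peak, as did Mir34b and Mir34c, the peaks are too few to place beside that share. The miRNA-end peaks of highest −log10 q lay at Mir7671 and Mir7240. Mir7671, 5903 bp from the interferon regulator Irf1, had a fold of 6.71 with p300 at 7.45. Mir7240 inside Mast3 had 6.99 with p300 at 4.48.

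Of 39 miRNA host genes and miRNA genes matched on a list chosen for this work, 8 had H3K4me3 at an end, each with a noncoding-end peak, and 2 had p300. This share, 20.5%, stands beside 12.4% of all noncoding genes. Mir22hg had a fold of 4.16 with p300 at 4.09, and Mir210, which hypoxia is known to induce, had a fold of 5.24 with p300 at 4.49. Mir99ahg (8.002), Mir670hg (4.29), Mir196a-1 (4.23) and Pvt1 (4.38) had no p300. Mir34a, which is also a p53 target, and Mir211, which lies in a melanocyte gene, had no peak within 1 kb of their own ends. Most miRNAs are cut from long transcripts whose promoter can lie far from the miRNA, and such promoters are not counted here.

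Most host genes of small nucleolar RNAs were marked at an end. Their transcripts carry snoRNAs in their introns and are produced at high rates in growing cells. Of 22 genes matched on this list, 19 had H3K4me3 at an end (86.4%). This stands beside 20.1% of all lncRNA genes and 32.1% of those with a curated record. Of the 19, 12 had a noncoding-end peak and the other 7, among them Gas5, Snhg1, Zfas1 and Rnu12, only had peaks shared with a protein-coding end. Rnu12 was on the list but is a spliceosomal RNA gene and not a host gene. The 18 noncoding-end peaks of the list had a median fold of 5.64, against 5.98 over all noncoding-end peaks. Dancr, whose promoter is printed above, led with a fold of 9.63 and 168 summit reads without p300. Snhg3 (6.92), Snhg5 (6.41) and Snhg20 (6.08) also had no p300. Snhg8 (7.25), Snhg17 (7.20) and Snhg15 (5.73) had p300 at folds of 4.27, 4.47 and 3.85. Snhg11, Snhg14 and Snhg18 had no peak.

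Of 26 abundant or well studied nuclear RNAs matched, 18 had H3K4me3 at an end (69.2%), beside 12.4% of all noncoding genes and 20.1% of lncRNA genes, and 11 had a noncoding-end peak. The list was chosen for well known RNAs, and nothing particular to it is read from its share. Firre, an X-linked lncRNA that organises nuclear contacts, had a fold of 8.68 without p300. Oip5os1 (8.62) had none, and Dleu2 (6.89) had p300 at a fold of 4.74. Lncenc1 (6.73) and Jpx (5.46) had none, and Norad, which binds Pumilio proteins, had a fold of 3.23. Malat1, an abundant RNA of nuclear speckles, had a fold of 3.85 with 129 summit reads and p300 at 4.11. Neat1, the scaffold of paraspeckles, had a fold of 1.88 with 127 summit reads over a background of 67.3, and the nearest p300 peak lay 67 bp from it. The folds of Malat1 and Neat1 were low although their summits held more reads than the median of 75. Xist, Tsix, Ftx, Miat, Hotair and Hottip had no peak at an end.

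Of the 7 matched lncRNAs tied to p53 or DNA damage, 6 had H3K4me3 at an end and 4 had a noncoding-end peak. With 7 genes this share was not placed against the 12.4% of all noncoding genes and the 20.1% of lncRNA genes. Trp53cor1 (lincRNA-p21), next to Cdkn1a, had a peak at chr17:29078334-29079464 with a fold of 4.85, 164 summit reads and p300 at a fold of 2.75. The nearest end of Cdkn1a lay 11515 bp away. Pvt1, downstream of Myc, had a fold of 4.38 over 2165 bp, and the nearest p300 peak lay 3942 bp away. Lncpint had a fold of 2.47 over a background of 64.9 reads, with a p300 peak 719 bp away.

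Of 10 matched imprinted noncoding transcripts, 3 had H3K4me3 at an end, all as noncoding-end peaks. Kcnq1ot1, the silencing RNA of the Kcnq1 domain, had a fold of 7.37 with 96 summit reads and p300 at 5.08. Airn, antisense to Igf2r, had 2 peaks (folds 6.96 and 5.72) without p300, and Peg13, inside Trappc9, had 2 (5.70 and 3.97) without p300. H19, Meg3, Rian and Mirg had no peak at an end. Set beside the 12.4% of all noncoding genes, 3 of 10 is too small a count to place.

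Other peaks among the 2 of highest −log10 q of their biotype were Zfp133-ps, a transcribed pseudogene (chr2:144458797-144459744, fold 12.99, no p300), and Gm22267, annotated as a snoRNA (chr6:24893823-24895345, fold 10.2, no p300). LOC115487884, a snoRNA within Snhg15, had a fold of 4.25 with p300 at 3.00. Gm4633, of the biotype misc_RNA and inside Cd47, had a fold of 7.10 with p300 at 5.40, and Gm14419, of the same biotype, had 9.65 without p300. Of 134 pseudogene-end peaks 26.9% overlapped a protein-coding gene, and 29.1% covered an end of the pseudogene.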

How the data were processed

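The CUT&Tag libraries of wild-type B16 cells used 1 µg of antibody, 18 cycles of PCR and paired reads of 150 bp, per the labels' protocols. Trim Galore, Bowtie2 2.2.5, Picard 2.22.4, deepTools and the build mm10 are named, per the submitters' processing notes; which caller, control or pooling gave the peaks is not given in the sources used. The authors deposited 1 narrowPeak list per antibody. Its score is the whole part of 10 times −log10 q, its fold enrichment is a ratio over an unnamed background, and its −log10 p and −log10 q rate each peak, as deposited by the authors. PCR copies can raise these values.

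Ends of genes were read from RefSeq's GRCm38.p6 table (21887 protein-coding and 28056 noncoding genes), and strands from its promoter table, which is not complete. Summit reads were solved from (reads + 1) over (background + 1) for fold and a Poisson tail for −log10 p; whole reads matched within 0.002 for 99.98% of H3K4me3 and 99.97% of p300 peaks. Read totals are unknown; the median summit held 80.0 and 39 reads. Peaks sharing at least 1 bp overlapped. Shares carry exact 95% binomial intervals, and differences carry Newcombe intervals; both cover counting error only. With 1 library per antibody no p-value was computed. The scripts were tested on simulated peaks.

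Genes were named by rule: the 10 peaks of highest −log10 q, the 10 widest, the 10 of highest p300 −log10 q, the 2 strongest of each biotype, up to 6 of each of 5 gene lists by fold, the peaks nearest the distance limits, and 10 miRNA genes by fold. Other genes of the lists, marker genes and the 2 added promoters were chosen after values were seen. The members, lists and rules were chosen with earlier results of these data known. Windows of 500 bp and 2 kb, stronger peaks only, autosomes only, no pseudogenes, annotated starts only, other definitions of overlap and leaving out high backgrounds were tried. Python 3.11.15, numpy 2.4.6, pandas 2.3.3, scipy 1.17.1 and matplotlib 3.10.9 were used. Mitochondrial and scaffold peaks and the 4 H3K9me3 libraries were left out.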

Additional observations from a re-analysis of the deposited data

Results flagged for a closer look

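Signal appeared on the mitochondrial chromosome, which no comparison above used. The H3K4me3 list held 5 mitochondrial peaks with folds of 1.66 to 3.67, and the p300 list held 3 with folds of 1.595 to 2.55 that covered 11322 bp. Mitochondrial DNA carries no histones, and the source of these reads was not tested.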

How the results depend on the processing

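The 6 results set out above were recomputed under 12 alternatives, 61 values in all, of which 43 stayed within 1.5 times the count or within the 95% interval of the value reported. As reported, neither difference in p300 share had an interval that excluded 0. With only the stronger 50% of each list by −log10 q there were 871 noncoding-end peaks, 16.3% of them with p300 (17.9% at lncRNA ends), a median width of 1032 bp, and a difference in p300 share of 3.26 percentage points from protein-coding ends (interval 0.84 to 5.95) and of -3.39 from peaks at no gene end (-6.00 to -0.53). With a window of 500 bp the difference from peaks at no gene end also excluded 0, in the opposite direction, at 2.08 (0.018 to 4.28). With the stronger 50% by fold there were 856 peaks, 14.8% with p300 (15.3% at lncRNA ends) and a median width of 892.5 bp. These settings hold fewer peaks in both lists by construction. With annotated starts only there were 951 peaks with a median width of 821 bp, and with a window of 500 bp the median width was 788 bp. The first keeps only lncRNAs among noncoding genes, since only they had a strand, and drops their other ends, and the cause of the change in width was not tested. Stricter overlap lowered the p300 share: to 18.6% (18.8% at lncRNA ends) with the H3K4me3 summit inside a p300 peak, 19.7% with the p300 summit inside the H3K4me3 peak, and 19.1% (19.5% at lncRNA ends) with 50% of the p300 peak inside. Leaving out backgrounds over 50 reads, an alternative chosen after seeing the data, gave 1804 peaks and 21.01%. No paired analysis was possible because each antibody had 1 library. The depth limits what weak peaks can show: the smallest listed p300 summit held 14 reads.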

Other observations

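On 2 autosomes the p300 share of noncoding-end peaks lay far from that of the other H3K4me3 peaks. On chromosome 14, 42.1% of 57 noncoding-end peaks overlapped p300, against 19.4% of 805 other peaks there. On chromosome 13 it was 6.96% of 115, against 20.1% of 972, and without the tRNA-end peaks it was 7 of 72 (9.72%, interval 4.00 to 19.01). On the X chromosome both were low, at 3 of 30 noncoding-end peaks (10.0%) and 9.90% of 525 others. The 2 autosomes were picked out of 21 chromosomes after their values were seen. Leaving chromosome 13 out gave 22.6% over the remaining 1748 noncoding-end peaks.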
